A study of Mus musculus with 22 samples.

Results

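The genes described here encode the working parts of the lysosome: 35 of the 24411 genes listed in each deposited table, taken by name as soluble enzymes, their helper proteins and proteins of the lysosomal membrane. They comprise 8 proteases and peptidases, 9 glycosidases, 4 sulfatases, 6 enzymes or carriers of lipids, 7 membrane proteins and progranulin. The list was drawn up with the fold changes of these same libraries already known, so the counts and p-values given for its members describe them within the whole table and are no independent evidence about the list. All 35 genes were found in both tables and all passed the filter on low counts in both.

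RNA was sequenced from primary neural stem cells of the adult mouse hippocampus, grown in medium with EGF and bFGF on PDL and laminin, in 22 libraries. Knockdown lasted 3 days and used lentivirus carrying a short hairpin RNA, with 10 particles added for each cell: the hairpin targeted Ogt in 5 libraries (ShOgt) and luciferase, which these cells lack, in 6 (ShLuc). Inhibition lasted 24 hours: 5 libraries came from cells given OSMI-1 at 12.5 µM, a compound that blocks the OGT enzyme, and 6 from cells given as much DMSO (vehicle). Nothing in the labels says that replicate libraries are separate cultures or animals, so p-values measure the spread between these libraries, which may be technical. OGT is the enzyme that attaches O-linked N-acetylglucosamine to nuclear and cytosolic proteins, and the comparisons ask which transcripts differ when it is depleted or inhibited. Each experiment has its own table, normalized on its own, so levels were compared only within a table.

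Lysosomal hydrolases are made in the endoplasmic reticulum, tagged with mannose 6-phosphate in the Golgi and carried by receptors to an acidic compartment, where they break down proteins, glycans and lipids. Membrane proteins line that compartment and move ions, cholesterol and other products across its border. Many of the genes respond together to TFEB and TFE3, transcription factors that bind a palindromic E-box extended by particular flanking bases, known as the CLEAR element. In the adult mouse brain, quiescent neural stem cells are known for large lysosomes and dividing progenitors for smaller ones.

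Promoters carrying the E-box, with or without its flanks, are shown first. Among their genes, Dpp7, Mcoln1 and Ctsd had the largest differences of the list after OSMI-1, which were known beforehand. Cd63, Tpp1, Npc2 and Grn, whose promoters held no E-box, came next, at log2 fold changes of 0.82, 0.79, 0.75 and 0.75. Gla, with 2 flanked copies, was at -0.13. Whether the motif plays a part was not tested. Promoter sequences, 250 bases before to 50 after each annotated start, were taken from RefSeq (GRCm38.p6), whose table held 31 of the 35 genes. Asah1, Npc1, Galns and Ctsb were not searched. For 26 of the 31 the sequence ran into the start of a coding transcript of the same gene in the GENCODE annotation. For the rest the start was not matched in this way. The E-box CACGTG, which reads the same on both strands, was found in the promoters of 14 of these 31 genes (45.2%), against 8.09% of the 27025 genes in the table and 12.0% of the 8675 genes of the table that were tested in both comparisons. The flanked form TCACGTGA, which contains CACGTG and is also its own reverse complement, was found in 6 of 31 (19.4%), against 1.13% of all genes of the table and 2.33% of those tested in both comparisons. Stretches of 30 bases around it are printed for these 6 genes and for Lamp1, 5′ to 3′ on the strand of the gene, with each E-box in capitals, its flanks included where they make the 8-base form. The stretches are chr2:25356388-25356417 for Dpp7 (minus strand), chr7:142387908-142387937 for Ctsd (minus strand), chr8:3500462-3500491 for Mcoln1 (plus strand), chr2:164833757-164833786 for Ctsa (plus strand), chr7:126583340-126583369 for Cln3 (minus strand), chrX:134601215-134601244 for Gla (minus strand) and chr8:13159096-13159125 for Lamp1 (plus strand).
Dpp7: ccgccagactaTCACGTGAtgctgccccgc
Ctsd: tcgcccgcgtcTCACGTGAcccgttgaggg
Mcoln1: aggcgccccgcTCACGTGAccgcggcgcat
Ctsa: ctgTCACGTGAtgcagatgcTCACGTGAcc
Cln3: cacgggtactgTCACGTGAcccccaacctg
Gla: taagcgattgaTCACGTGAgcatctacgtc
Lamp1: atatCACGTGgtccagcgccCACGTGatgc
The Cln3 copy is flanked by a further G and C; this longest form was found in 1 of 31 genes (3.23%) and in 0.37% of all genes of the table. Lamp1 lacks the 8-base form but had 4 copies of the 6-base E-box in its promoter, 2 of them in the stretch shown. Ctsa and Gla each had 2 copies of the 8-base form: in Ctsa the CACGTG within them began 12 bases before and 6 bases after the start, and in Gla 227 and 194 bases before it, the farther one being printed. A match says only that these letters stand in the promoter. The motif is the one named above as bound by factors to which many lysosomal genes respond. Its higher share among the genes of the list is thus no independent finding about them.

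**Figure D1:**
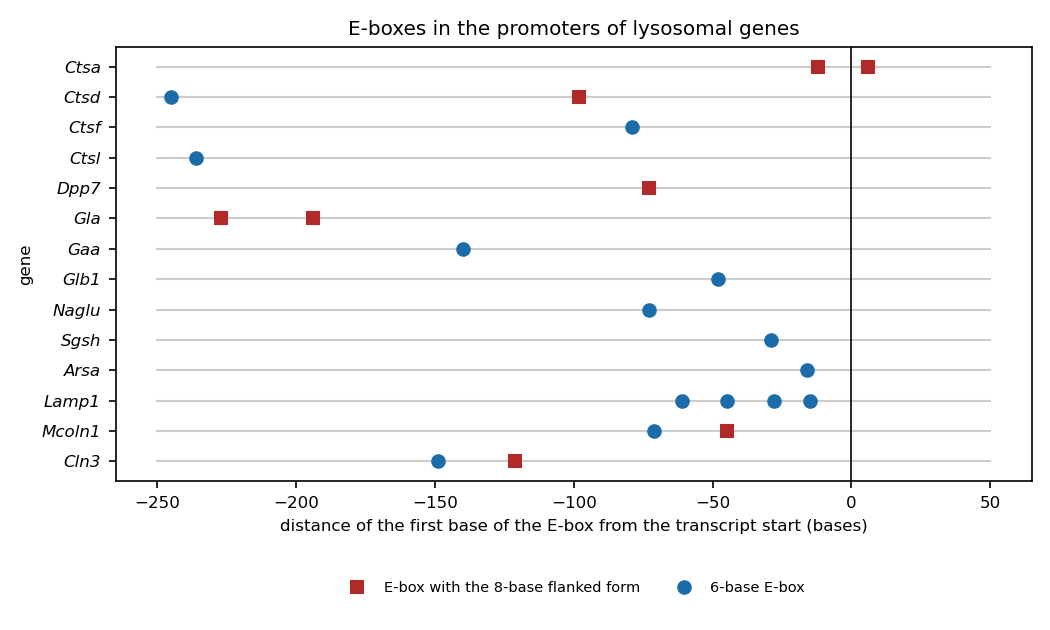
Positions of E-boxes in the promoters of the 14 lysosomal genes that hold at least 1, as distance in bases of the first base of CACGTG from the annotated transcript start (line at 0). Squares mark the form with 8-base flanks, found in Ctsa, Ctsd, Dpp7, Gla, Mcoln1 and Cln3, and circles the 6-base E-box; Lamp1 carries 4.

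Depths were 7.22 to 13.2 M reads per library in the knockdown experiment and 4.52 to 12.8 M in the inhibitor experiment, OSMI-1 replicate 4 being the deepest. Ogt itself checked the labels. Its normalized read counts were 401, 418, 349, 430.0 and 524 in ShOgt libraries against 737 to 1004 (median 826) in ShLuc libraries, with no overlap (log2 fold change -0.98 ± 0.11 (SE), limma adjusted p = 1.11e-06). After OSMI-1, which acts on the enzyme, Ogt counts were 632, 563, 568, 579 and 658 against 404 to 506 (median 454) in vehicle libraries (log2 fold change 0.40 ± 0.08 (SE), limma adjusted p = 0.00104). Of 11 neural stem cell markers, 10 passed the count filter in the knockdown experiment and 9 in the inhibitor experiment. Nes, Sox2 and Vim of that list were detected in every library. Calls of the list went in both directions and are given with the other markers below. Among 13 microglia and macrophage markers, 1 passed the count filter in the knockdown experiment (Cd68, limma adjusted p = 0.332) and 0 in the inhibitor experiment. The libraries ShLuc 1, ShLuc 3, ShOgt 3, vehicle 1 and OSMI-1 replicate 5 stood apart on a principal component; without them, 21 of the 35 lysosomal genes were called after knockdown and 23 after OSMI-1, against 20 and 23 with them.

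After OSMI-1, lysosomal transcripts were higher in most classes. Of the 35 genes, 23 were called higher, 0 lower and 12 were not called, at a limma adjusted p under 0.05 over 11349 genes; the median log2 fold change was 0.47, with a range of -0.26 to 1.27, against a median of 0.00 over all genes tested. Among all genes tested, 24.8% were called, 11.6% higher and 13.2% lower, and among the 8393 at least as abundant as the least abundant lysosomal gene 29.4% were called. By edgeR and by DESeq2, 23 of the 35 were called, with 24.7% and 22.6% of all genes. Dpp7, Mcoln1, Ctsd and Cd63 led the list, at log2 fold changes of 1.27 ± 0.11, 0.91 ± 0.09, 0.83 ± 0.07 and 0.82 ± 0.08 (SE). The counts of 20 genes did not overlap between the groups, all higher in OSMI-1 libraries, where 14.0% of all genes tested did not overlap, 6.27% being higher and 7.71% lower.

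After Ogt knockdown the same genes went in both directions. Of the 35 genes, 16 were called higher, 4 lower and 15 were not called over 12136 genes; the median log2 fold change was 0.16, with a range of -0.63 to 0.91, against a median of 0.01 over all genes tested. Of all genes tested, 31.8% were called, 15.4% higher and 16.4% lower, and of the 8406 at least as abundant as the least abundant lysosomal gene 37.9% were. By edgeR and DESeq2, 20 and 21 of the 35 were called, with 31.7% and 29.7% of all genes. Cln3 and Lipa were the highest in ShOgt libraries and Ctsb the lowest. The counts of 12 genes did not overlap, 10 higher and 2 lower, against 18.8% of all genes tested (8.83% higher and 9.96% lower). Since RNA came from bulk cultures, a different number of cells expressing a gene and a different amount of RNA per cell cannot be told apart. Strand use in the counting is not given in the sources used here, and 12 of the 35 genes overlap another coding gene in the annotation (Ctsa, Ctsb, Ctsd, Ctsz, Hexa, Glb1, Sgsh, Ppt1, Lamp1, Npc1, Cln3 and Grn), whose reads may not be fully separable.

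**Figure D2:**
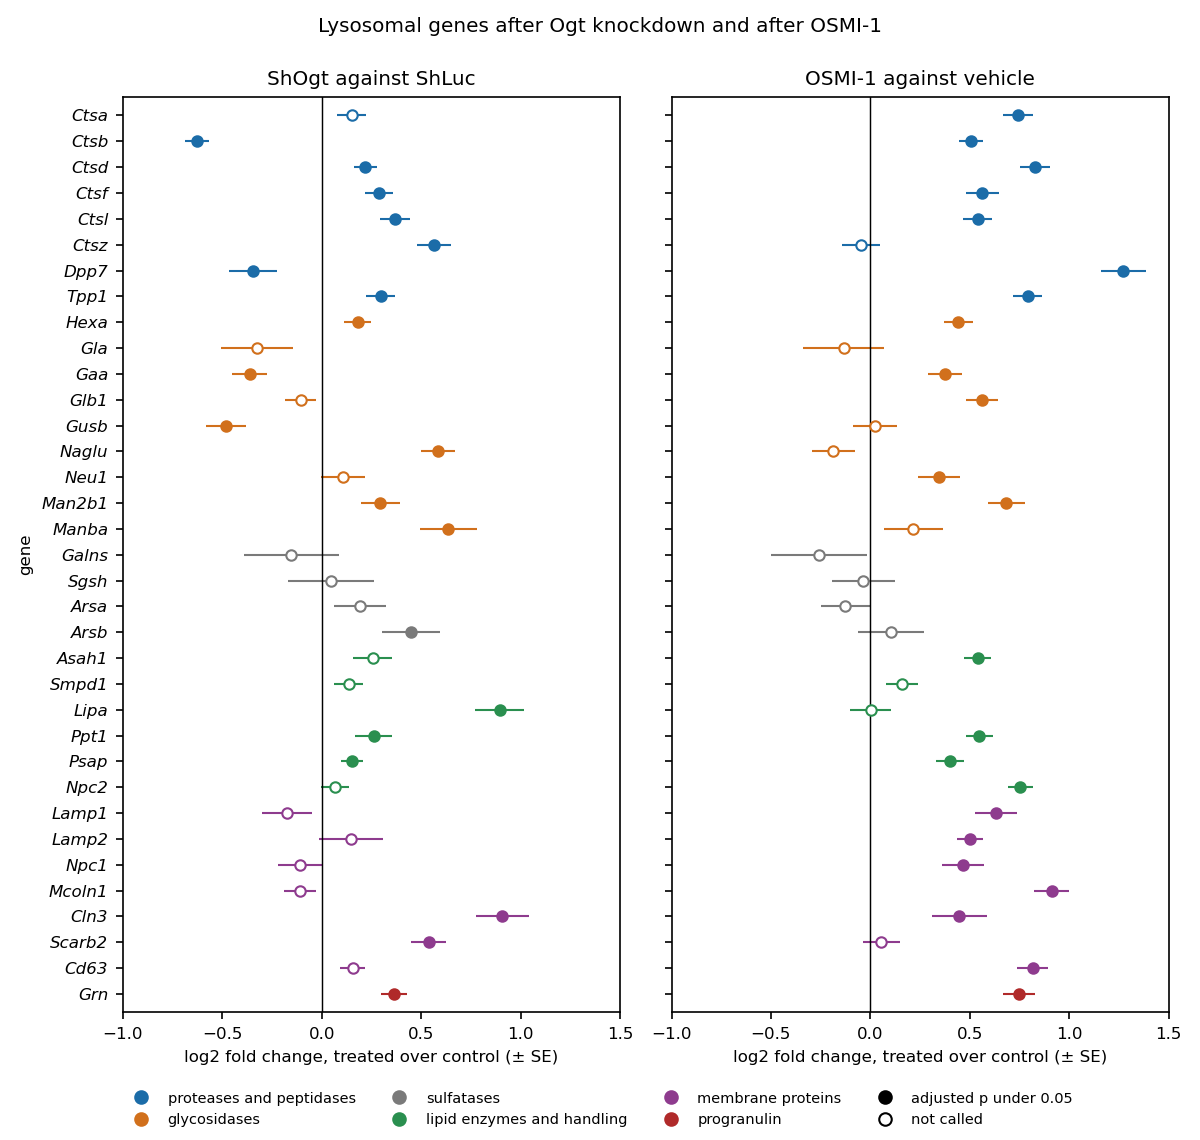
Log2 fold change with its standard error (limma, on log2 of the normalized count plus 1) of the 35 lysosomal genes, ShOgt over ShLuc on the left and OSMI-1 over vehicle on the right, coloured by class; filled points had an adjusted p under 0.05. After OSMI-1 23 points are filled, all above 0; after knockdown 16 are filled above 0 and 4 (Ctsb, Dpp7, Gaa and Gusb) below.

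Proteases and peptidases degrade the proteins delivered to the lysosome; 7 of 8 were called higher after OSMI-1 (median log2 fold change 0.65), and 5 higher and 2 lower after knockdown (median 0.25). Class counts here and below stand beside 11.6% of all genes tested called higher and 13.2% lower after OSMI-1. After knockdown these shares were 15.4% and 16.4%. Dpp7, a peptidase that removes dipeptides from proline-containing peptides, had the largest difference of the whole list. Its counts were 343, 354, 315, 291 and 316 in OSMI-1 libraries, against 103 to 150.3 (median 138) in vehicle libraries. Each OSMI-1 library held more than any vehicle library (log2 fold change 1.27 ± 0.11 (SE), limma adjusted p = 1.65e-08). In the knockdown experiment Dpp7 went the other way, with 285, 251, 277, 221 and 228 in ShOgt libraries against 276 to 370.4 (median 323) in ShLuc libraries. The groups overlapped, all 5 ShOgt values lying below the ShLuc mean (log2 fold change -0.34 ± 0.12 (SE), limma adjusted p = 0.0341). That lower call was lost in 7 of 11 fits that left out 1 library (without ShOgt 2, 5 or 6 or ShLuc 1, 2, 5 or 6), with an adjusted p of up to 0.0887.

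Ctsb, cathepsin B, a cysteine protease, was the gene of the list whose groups did not overlap in either comparison and lay in opposite directions. In ShOgt libraries its counts were 4380.2, 4319.5, 3751, 4019.7 and 4384, against 6244 to 6901 (median 6314) in ShLuc libraries. The highest ShOgt library stood well under the lowest ShLuc library (log2 fold change -0.63 ± 0.06 (SE), limma adjusted p = 2.13e-07). In OSMI-1 libraries its counts were 3252, 3202, 3212, 3001 and 3000.0, against 2094 to 2351 (median 2189) in vehicle libraries. Here each OSMI-1 library lay above every vehicle library (log2 fold change 0.51 ± 0.06 (SE), limma adjusted p = 9.61e-07). The difference between the comparisons was not tested, since hairpin and inhibitor, duration and table all differ.

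Ctsd, cathepsin D, an aspartic protease that is the most abundant of the list per kilobase of transcript, was higher in both. It had 12964, 13898, 13069.9, 11182 and 10433 in OSMI-1 libraries against 6318 to 7379.6 (median 7080.2) in vehicle libraries. OSMI-1 replicates 5 and 6 were the lowest of their group, and still above every vehicle library (log2 fold change 0.83 ± 0.07 (SE), limma adjusted p = 1.39e-08). In the knockdown experiment Ctsd stood at 18891, 17516, 17470.4, 17445 and 17507 in ShOgt libraries against 14116 to 16593 (median 15259) in ShLuc libraries. The groups did not overlap here either (log2 fold change 0.22 ± 0.06 (SE), limma adjusted p = 0.00611).

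Tpp1, an enzyme that removes tripeptides and is lost in a form of Batten disease, had counts of 2623, 2388, 2811, 2184 and 2299 in OSMI-1 libraries against 1299 to 1576 (median 1428) in vehicle libraries. There was no overlap (log2 fold change 0.79 ± 0.07 (SE), limma adjusted p = 3.56e-08). In ShOgt libraries it had 4715, 4831, 4112, 4021 and 4579.9, against 3268 to 4026 (median 3592) in ShLuc libraries. ShOgt 5 fell just under the highest ShLuc library, and all 5 ShOgt values were above the ShLuc mean (log2 fold change 0.30 ± 0.07 (SE), limma adjusted p = 0.00391).

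The cysteine cathepsins Ctsf and Ctsl were higher in both comparisons without overlap. Ctsf had 773, 808, 735, 659 and 735 in OSMI-1 libraries against 425 to 553 (median 511) in vehicle libraries (log2 fold change 0.56 ± 0.08 (SE), limma adjusted p = 2.14e-05). It had 1598, 1425, 1386, 1463 and 1409.8 in ShOgt libraries against 1100.2 to 1254 (median 1205) in ShLuc libraries (log2 fold change 0.29 ± 0.07 (SE), limma adjusted p = 0.00355). All 5 treated libraries were above all 6 controls in each comparison. For Ctsl the OSMI-1 libraries held 1306, 1335, 1149, 1344 and 1186 and the vehicle libraries 813 to 972 (median 860.0) (log2 fold change 0.54 ± 0.07 (SE), limma adjusted p = 5.65e-06). The ShOgt libraries held 1475, 1528, 1436, 1395 and 1481 of Ctsl and the ShLuc libraries 1062 to 1336 (median 1109) (log2 fold change 0.37 ± 0.07 (SE), limma adjusted p = 0.000879). ShLuc 1, the library apart, was the highest of its group for Ctsl and still below all ShOgt libraries.

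Ctsz, cathepsin Z, a carboxypeptidase, was called higher after knockdown and not after OSMI-1. Its counts were 1878, 1672, 2049.7, 1692 and 1585 in ShOgt libraries against 1104 to 1396 (median 1152) in ShLuc libraries. No values overlapped (log2 fold change 0.57 ± 0.08 (SE), limma adjusted p = 4.08e-05). After OSMI-1 Ctsz averaged 576 ± 56.1 against 597 ± 78.7 in vehicle libraries (normalized counts, mean ± SD, n = 5 and 6, as for all gene means that follow), with an adjusted p of 0.761 by limma. Ctsa, the protective protein that stabilizes the neuraminidase and β-galactosidase of the lysosome, averaged 2427 ± 243 in OSMI-1 libraries and 1447 ± 105 in vehicle libraries (log2 fold change 0.74 ± 0.07 (SE), limma adjusted p = 7.89e-08). After knockdown Ctsa stood at 4324 ± 389 in ShOgt and 3892 ± 313 in ShLuc libraries and was not called (limma adjusted p = 0.122); it was called without ShOgt 5 or without ShLuc 1.

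**Figure D3:**
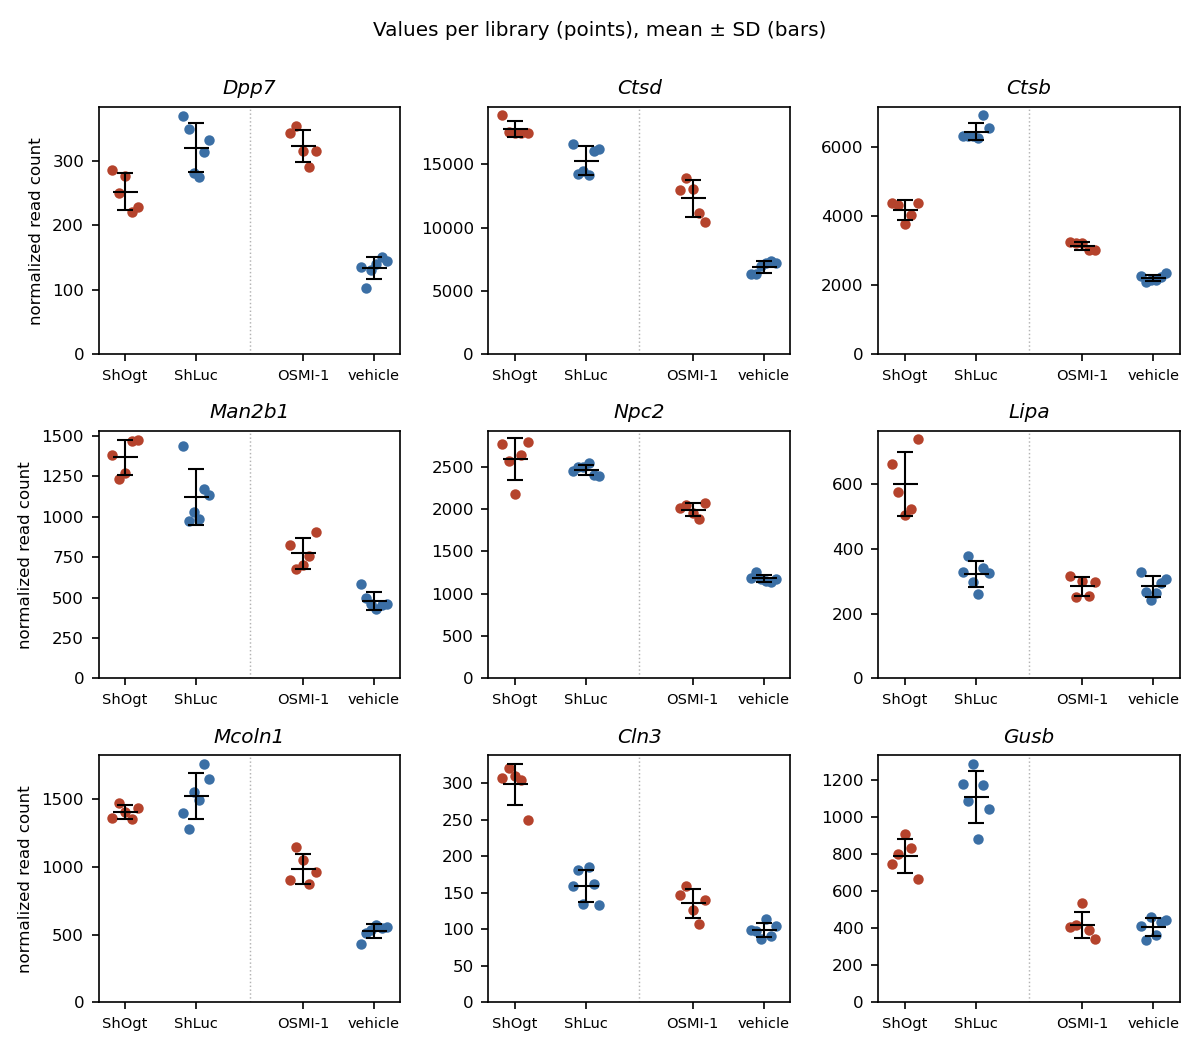
Normalized read counts per library (points) with mean and SD (bars) for 9 lysosomal genes, treated groups (ShOgt, OSMI-1) in red to the left of their controls (ShLuc, vehicle) in blue; levels are comparable only on the same side of the dotted line. Ctsb lies below its control in ShOgt libraries and above it in OSMI-1 libraries, Lipa differs on the left alone, and Npc2 and Mcoln1 on the right.

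Glycosidases trim sugars from glycoproteins, glycolipids and glycosaminoglycans; 5 of 9 were called higher after OSMI-1 (median log2 fold change 0.35), and 4 higher and 2 lower after knockdown (median 0.11). Man2b1, the lysosomal α-mannosidase, led the class after OSMI-1, with 826, 677, 702, 755 and 906 in OSMI-1 libraries against 431 to 585 (median 458) in vehicle libraries. The groups did not overlap (log2 fold change 0.68 ± 0.09 (SE), limma adjusted p = 7.6e-06). In ShOgt libraries Man2b1 had 1381, 1235, 1272, 1470.4 and 1476, against 977 to 1437 (median 1080.0) in ShLuc libraries. ShLuc 1 lay within the ShOgt range, and the call was lost in 5 of 11 fits that left out 1 library (ShOgt 1, 5 or 6 or ShLuc 2 or 4; log2 fold change 0.29 ± 0.10 (SE), limma adjusted p = 0.0253).

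Manba, the β-mannosidase that takes the next sugar of the same glycans, had the largest rise of the class after knockdown. Its counts were 389.5, 338, 383, 337 and 349 in ShOgt libraries against 159 to 318 (median 232) in ShLuc libraries. ShLuc 1 was the lowest and ShLuc 5 the highest control, and no value overlapped (log2 fold change 0.64 ± 0.14 (SE), limma adjusted p = 0.00198). After OSMI-1 it averaged 160.4 ± 5.13 against 141 ± 32.9 in vehicle libraries (limma adjusted p = 0.31). Naglu, which removes N-acetylglucosamine from heparan sulfate, was also higher after knockdown, at 1157 ± 103 in ShOgt and 769.9 ± 56.3 in ShLuc libraries, with no overlap (log2 fold change 0.59 ± 0.08 (SE), limma adjusted p = 2.91e-05). In OSMI-1 libraries Naglu averaged 290.1 ± 43.9, against 328 ± 29.6 in vehicle libraries (limma adjusted p = 0.222).

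Gusb, β-glucuronidase, fell furthest in the class after knockdown. It had 749.7, 805, 912, 836 and 668 in ShOgt libraries against 882 to 1290.0 (median 1132) in ShLuc libraries. ShOgt 3 overlapped the lowest ShLuc library, and all 5 ShOgt values were below the ShLuc mean (log2 fold change -0.48 ± 0.10 (SE), limma adjusted p = 0.00116). After OSMI-1 its means were 419 ± 72.2 and, in vehicle libraries, 409.8 ± 49.3 (limma adjusted p = 0.902).

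Gaa, the acid α-glucosidase that degrades glycogen and is lost in Pompe disease, was called in opposite directions. In ShOgt libraries it had 2566, 1922, 2487, 2246 and 1930.0, against 2630.3 to 3194 (median 2741) in ShLuc libraries. ShOgt 1 and 3 came close to the lowest ShLuc library without reaching it (log2 fold change -0.36 ± 0.09 (SE), limma adjusted p = 0.00359). In OSMI-1 libraries it had 1705, 1747, 1397, 1252 and 1426, against 1081 to 1361 (median 1117) in vehicle libraries. Vehicle 3 lay within the OSMI-1 range, and all 5 OSMI-1 values were above the vehicle mean (log2 fold change 0.37 ± 0.09 (SE), limma adjusted p = 0.00251).

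Hexa, the α subunit of the β-hexosaminidase that degrades GM2 ganglioside, had 1693, 1574, 1708, 1346 and 1558 in OSMI-1 libraries against 1092 to 1278 (median 1118) in vehicle libraries. The groups did not overlap (log2 fold change 0.44 ± 0.07 (SE), limma adjusted p = 0.000108). In ShOgt libraries Hexa had 2963, 2844, 2868, 2674 and 2709, against 2230.2 to 2688 (median 2517) in ShLuc libraries. The groups overlapped narrowly (log2 fold change 0.18 ± 0.07 (SE), limma adjusted p = 0.0482), and the call was lost in 9 of the 11 fits that left out 1 library (all but those without ShLuc 2 or 6), with an adjusted p between 0.0368 and 0.122 over the 11 fits, and under 5 other settings. Glb1, β-galactosidase, averaged 1096 ± 123 in OSMI-1 libraries and 740.5 ± 44.3 in vehicle libraries (log2 fold change 0.56 ± 0.08 (SE), limma adjusted p = 1.37e-05), and 2135 ± 205 in ShOgt against 2295 ± 165 in ShLuc libraries (limma adjusted p = 0.31). Neu1, the sialidase of the same complex, averaged 369 ± 46.8 in OSMI-1 and 290.0 ± 32.9 in vehicle libraries (log2 fold change 0.35 ± 0.11 (SE), limma adjusted p = 0.0183), a call that was lost without OSMI-1 replicate 1 or 4. Neu1 had a limma adjusted p of 0.489 after knockdown. Gla, α-galactosidase A, whose promoter holds 2 copies of the flanked E-box, averaged 71.8 ± 18.8 in OSMI-1 and 78 ± 17.5 in vehicle libraries (limma adjusted p = 0.684) and 145 ± 29.3 in ShOgt and 184 ± 41.8 in ShLuc libraries (limma adjusted p = 0.183).

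Sulfatases, which remove sulfate groups from glycosaminoglycans and sulfatide, were the one class with 0 genes called after OSMI-1 (median log2 fold change -0.08; 0 of 4 also at an unadjusted limma p under 0.05, the lowest being 0.293, and 0 by edgeR and by DESeq2). After knockdown 1 of 4 was called (25.0%, no more than the 31.8% of all genes tested). Arsb, which acts on dermatan sulfate, had 269, 322, 281, 265 and 264 in ShOgt libraries against 157 to 281 (median 205) in ShLuc libraries. ShLuc 1 lay within the ShOgt range, and all 5 ShOgt values were above the ShLuc mean (log2 fold change 0.45 ± 0.14 (SE), limma adjusted p = 0.0225); without ShOgt 2 or without ShLuc 4 the call was lost, with an adjusted p of up to 0.0681. The other sulfatases are Galns, Sgsh and Arsa, with log2 fold changes after knockdown of -0.15 ± 0.24, 0.05 ± 0.21 and 0.19 ± 0.13 (SE) and after OSMI-1 of -0.26 ± 0.24, -0.03 ± 0.16 and -0.13 ± 0.12. Galns, Sgsh and Arsb, with Gla, were also the 4 least abundant of the 35 per kilobase in both sets of controls, and their log2 fold changes had standard errors of 0.16 to 0.24 after OSMI-1 and 0.14 to 0.24 after knockdown.

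Lipid enzymes and carriers release fatty acids, ceramide and cholesterol; 4 of 6 were called higher after OSMI-1 (median log2 fold change 0.47) and 3 of 6 after knockdown (median 0.20), with 0 lower in either. Npc2, which hands cholesterol from the lysosomal interior to NPC1, led after OSMI-1, with 2012, 2053, 1958, 1879 and 2068 in OSMI-1 libraries against 1143 to 1257 (median 1177) in vehicle libraries. The OSMI-1 values were tightly grouped and far from the controls (log2 fold change 0.75 ± 0.06 (SE), limma adjusted p = 3.4e-09). After knockdown it averaged 2591 ± 248 in ShOgt and 2463 ± 63.2 in ShLuc libraries and was not called (limma adjusted p = 0.499).

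Lipa, the acid lipase that frees cholesterol and fatty acids from lipoprotein lipids, was called after knockdown and not after OSMI-1. Its counts were 662, 575, 504, 521 and 738 in ShOgt libraries against 259 to 377 (median 327) in ShLuc libraries. Every ShOgt library was above every ShLuc library (log2 fold change 0.89 ± 0.12 (SE), limma adjusted p = 1.43e-05). In OSMI-1 libraries it had 315, 250.4, 300.4, 254 and 297, against 241 to 329 (median 280.2) in vehicle libraries, the OSMI-1 range lying inside the vehicle range (limma adjusted p = 0.998).

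Ppt1, which removes palmitate from proteins and is lost in infantile Batten disease, had 2085, 1763, 1825, 1835 and 1691 in OSMI-1 libraries against 1141 to 1295 (median 1281) in vehicle libraries. There was no overlap (log2 fold change 0.55 ± 0.07 (SE), limma adjusted p = 2.23e-06). In ShOgt libraries Ppt1 had 2500.0, 2488, 1893, 2373 and 2599, against 1595 to 2199 (median 2019) in ShLuc libraries. ShOgt 3 was below the ShLuc mean and the other 4 above every ShLuc library (log2 fold change 0.26 ± 0.09 (SE), limma adjusted p = 0.0381); the call was lost in 7 of 11 fits that left out 1 library (ShOgt 1, 2, 5 or 6 or ShLuc 3, 4 or 5), with an adjusted p of up to 0.0952.

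Psap, the precursor of the saposins that present sphingolipids to their enzymes, had 8422, 8652, 8226, 7115 and 7288 in OSMI-1 libraries against 5288 to 6677 (median 6026) in vehicle libraries. The groups did not overlap (log2 fold change 0.40 ± 0.07 (SE), limma adjusted p = 0.000155). In ShOgt libraries Psap had 13887, 12581, 13394, 12940.5 and 12464, against 10994 to 12626 (median 11669) in ShLuc libraries. Overlap was slight (log2 fold change 0.15 ± 0.06 (SE), limma adjusted p = 0.0411), and the call was lost in 7 of 11 fits that left out 1 library (ShOgt 1, 2, 3 or 5 or ShLuc 2, 3 or 4), with an adjusted p of up to 0.12, and without the 3 libraries that stood apart (adjusted p = 0.0725). Asah1, acid ceramidase, averaged 2148 ± 161 in OSMI-1 libraries against 1478 ± 104 in vehicle libraries (log2 fold change 0.54 ± 0.07 (SE), limma adjusted p = 3.74e-06). Asah1 averaged 2735 ± 392 in ShOgt against 2282 ± 257 in ShLuc libraries, just short of the threshold (log2 fold change 0.26 ± 0.10 (SE), limma adjusted p = 0.0514), and was called under 9 of 20 other settings. Smpd1, acid sphingomyelinase, was called in neither (limma adjusted p = 0.161 after OSMI-1 and 0.163 after knockdown).

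Of the membrane proteins, 6 of 7 were called higher after OSMI-1 (median log2 fold change 0.50) and 2 of 7 after knockdown (median 0.15). That was 85.7% and 28.6% of the class, with 0 lower in either. Over all genes tested, 11.6% and 15.4% were called higher, and 24.8% and 31.8% in either direction. The knockdown count of this class was thus no larger than the share called over all genes. Mcoln1, the calcium-permeable channel TRPML1, had 905, 1145, 1053, 876 and 963 in OSMI-1 libraries against 429 to 569 (median 543) in vehicle libraries. The lowest OSMI-1 library lay far above the highest vehicle library (log2 fold change 0.91 ± 0.09 (SE), limma adjusted p = 5.84e-08). After knockdown it averaged 1407 ± 50.2 in ShOgt and 1526 ± 172 in ShLuc libraries and was not called (limma adjusted p = 0.328).

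Cln3, the membrane protein lost in juvenile Batten disease, was the member with the largest rise after knockdown. It had 308, 321, 311, 305 and 249.7 in ShOgt libraries against 133 to 185 (median 161) in ShLuc libraries. ShOgt 6 was the lowest of its group and still above all controls (log2 fold change 0.91 ± 0.13 (SE), limma adjusted p = 3.33e-05). In OSMI-1 libraries Cln3 had 147, 159, 126, 107 and 139.7, against 87 to 114 (median 98.4) in vehicle libraries. OSMI-1 replicate 5 lay within the vehicle range (log2 fold change 0.45 ± 0.14 (SE), limma adjusted p = 0.0198), and the call was lost without OSMI-1 replicate 1 or 2, with an adjusted p of up to 0.0628.

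The other membrane proteins are given by their means. Cd63, a tetraspanin of late endosomes and lysosomes, averaged 4692 ± 649 in OSMI-1 libraries against 2645 ± 106 in vehicle libraries (log2 fold change 0.82 ± 0.08 (SE), limma adjusted p = 4.9e-08), with OSMI-1 replicate 1 the lowest of its group; after knockdown its log2 fold change was 0.16 ± 0.06 (limma adjusted p = 0.0669), and it was called without ShOgt 3 or without ShLuc 1. Lamp1 and Lamp2, the heavily glycosylated proteins that coat the inner face of the membrane, were higher after OSMI-1 without overlap, at log2 fold changes of 0.63 ± 0.11 and 0.50 ± 0.07 (limma adjusted p = 0.000102 and 6.55e-06). After knockdown they were not called (-0.17 ± 0.13 and 0.15 ± 0.16), with ShLuc counts of 1823 to 3492 (median 2591) and 1188 to 2029 (median 1451). Npc1, the cholesterol exporter that receives its cargo from NPC2, averaged 384 ± 64.7 in OSMI-1 and 275 ± 15.1 in vehicle libraries (log2 fold change 0.47 ± 0.11 (SE), limma adjusted p = 0.00224). Scarb2, the receptor LIMP-2 that carries glucocerebrosidase to the lysosome, averaged 1107 ± 109.5 in ShOgt and 761 ± 64.1 in ShLuc libraries, without overlap (log2 fold change 0.54 ± 0.09 (SE), limma adjusted p = 0.000109), and 479 ± 18.2 in OSMI-1 against 465 ± 66.4 in vehicle libraries (limma adjusted p = 0.716).

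Grn encodes progranulin, a secreted and lysosomal protein whose loss causes a lysosomal storage disease and frontotemporal dementia in people. Its counts were 3179, 3070.5, 2968, 2304 and 2439.9 in OSMI-1 libraries against 1579.7 to 1793 (median 1649) in vehicle libraries. OSMI-1 replicates 5 and 6 were again the lowest of their group, above all controls (log2 fold change 0.75 ± 0.08 (SE), limma adjusted p = 2.34e-07). In ShOgt libraries Grn had 5316, 4649, 5263, 5055 and 4539, against 3605 to 4248 (median 3769.9) in ShLuc libraries. These groups did not overlap either (log2 fold change 0.36 ± 0.06 (SE), limma adjusted p = 0.000268).

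Set side by side, 10 genes were called higher in both comparisons (Ctsd, Ctsf, Ctsl, Tpp1, Hexa, Man2b1, Ppt1, Psap, Cln3 and Grn), and 3 lower after knockdown and higher after OSMI-1 (Ctsb, Dpp7 and Gaa). A further 10 were called higher after OSMI-1 and not called after knockdown (Ctsa, Glb1, Neu1, Asah1, Npc2, Lamp1, Lamp2, Npc1, Mcoln1 and Cd63). Another 6 were called higher after knockdown and not after OSMI-1 (Ctsz, Naglu, Manba, Arsb, Lipa and Scarb2). Gusb was called lower after knockdown alone, and Gla, Galns, Sgsh, Arsa and Smpd1 were called in neither. The knockdown calls of Dpp7, Hexa, Man2b1, Arsb, Ppt1 and Psap were lost under some other settings. So were the OSMI-1 calls of Neu1 and Cln3. In each comparison alone, 31.8% of all genes tested were called after knockdown and 24.8% after OSMI-1. The share of each combination of calls over all genes was not counted. Across the 35 genes the fold changes of the comparisons had a Pearson correlation of -0.18 and a Spearman correlation of -0.11, against 0.16 and 0.19 across the 11269 genes tested in both; these are descriptions across genes, which are not independent. For 25 of 35 genes, and for 5508 of all 11269, the log2 fold change was larger after OSMI-1 than after knockdown, a difference between experiments that was not tested.

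**Figure D4:**
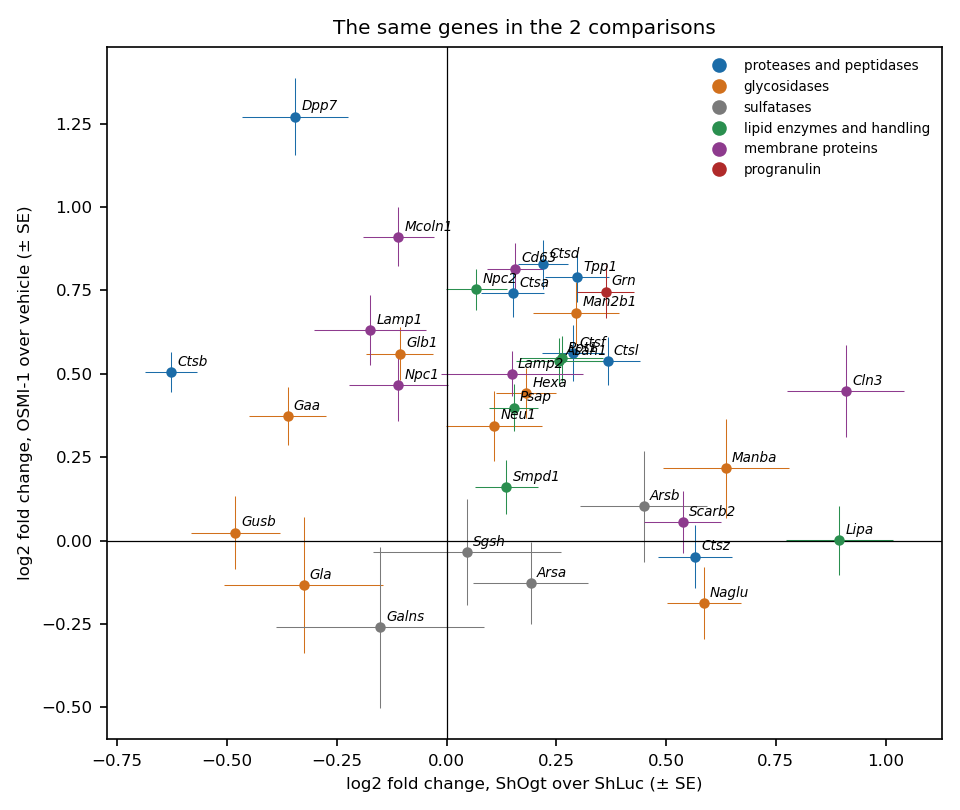
Log2 fold change of each of the 35 genes after knockdown (x axis, ShOgt over ShLuc) and after OSMI-1 (y axis, OSMI-1 over vehicle), with standard errors and coloured by class. Dpp7, Ctsb and Gaa lie at the upper left, Lipa, Ctsz, Naglu and Scarb2 at the right near 0 on the y axis, and the Pearson correlation over the 35 points is -0.18.

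The promoter motif was set beside these calls. After OSMI-1, 10 of the 14 genes with CACGTG in the promoter were called higher (median log2 fold change 0.55), as were 10 of the 17 without it (median 0.40) and 5 of the 6 with the flanked form printed above (median 0.79). After knockdown, 5 of the 14 with the E-box were called higher and 2 lower (median 0.10), against 11 higher and 1 lower of the 17 without it (median 0.26). Of the 6 with the flanked form, 2 were called higher and 1 lower after knockdown (median 0.02). Over all genes tested, 11.6% were called higher and 13.2% lower after OSMI-1, and 15.4% higher and 16.4% lower after knockdown. Of the genes called higher after knockdown and not after OSMI-1, Ctsz, Manba, Arsb, Lipa and Scarb2 had 0 copies, and Naglu had 1 of the 6-base form. Of those called higher after OSMI-1 and not after knockdown, Neu1, Npc2, Lamp2 and Cd63 likewise had 0 copies. Ctsa, Glb1, Lamp1 and Mcoln1 held at least 1, and Asah1 and Npc1 were not searched. A sequence in the 3′ untranslated region, AACATGC, was searched as well, because genes carrying it stood lower after knockdown across the table. The knockdown values that follow are therefore no independent evidence about it. Of the 11349 genes searched in that comparison, 10.2% held it; their median log2 fold change was -0.17, against 0.02 for the rest, and 28.3% against 15.6% were called lower, a difference whose cause was not tested. In the inhibitor experiment, 10.4% of the 10696 genes searched held it. Their median log2 fold change after OSMI-1 was 0.04, against -0.01 for the rest, and 11.0% against 13.6% were called lower. Among the 35 lysosomal genes, Ctsb and Ctsl held the sequence, Ctsb with the largest fall of the list after knockdown and Ctsl with a rise.

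Summed over the 35 genes, normalized counts were 61574, 63900, 61689, 56214 and 55930 in OSMI-1 libraries, against 38512 to 41389 (median 39375) in vehicle libraries. The groups did not overlap, OSMI-1 replicates 5 and 6 were the lowest of their group, and the log2 difference of the means was 0.59. As a share of all reads this was 1.03 to 1.14% in OSMI-1 and 0.668 to 0.752% in vehicle libraries. In the knockdown experiment the sums were 94351, 88736, 87305, 87247 and 88941 in ShOgt libraries, against 78324 to 86005 (median 82063) in ShLuc libraries. These groups did not overlap either, ShOgt 1 was the highest, and the log2 difference was 0.12. As a share of all reads the sums were 0.856 to 0.947% in ShOgt and 0.761 to 0.836% in ShLuc libraries. Ctsd and Psap together made up 33.8% ± 1.55 of the sum in OSMI-1 and 32.6% ± 1.05 in vehicle libraries, and 34.5% ± 0.684 in ShOgt and 32.9% ± 0.836 in ShLuc libraries (SD, n = 5 and 6). No test was made on these sums. Rn45s, a ribosomal RNA transcript, took 6.69 to 10.5% of reads in OSMI-1 and 4.81 to 14.2% in vehicle libraries, and 0.921 to 1.23% in ShOgt and 0.938 to 1.25% in ShLuc libraries; its part in the result was not tested, and without its reads the log2 differences of the shares were 0.58 and 0.18.

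**Figure D5:**
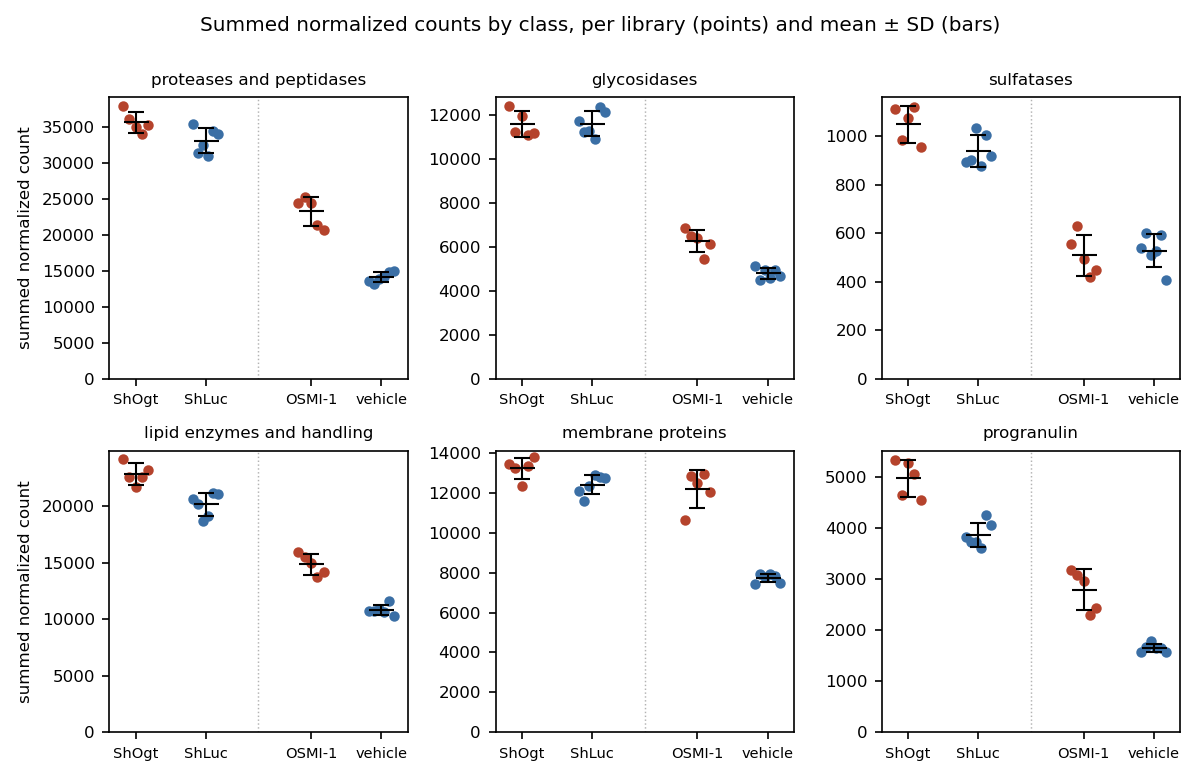
Summed normalized counts of each class per library (points) with mean and SD (bars), treated groups in red to the left of their controls in blue; the y axis starts at 0 and differs between panels. OSMI-1 libraries lie above vehicle libraries in every panel except the sulfatases (508 ± 84.8 against 528 ± 70.0), and ShOgt and ShLuc libraries overlap for proteases, glycosidases, sulfatases and membrane proteins.

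Levels of the genes in control libraries covered a wide range. Per kilobase of transcript, Ctsd had 7187 ± 531 normalized counts in ShLuc libraries, Cd63 5147 ± 416, Psap 4421 ± 254 and Grn 1650 ± 104 (SD, n = 6), while Sgsh had 51.8 ± 17.4, Arsb 51.6 ± 11.0 and Galns 43.0 ± 16.0. Ctsd lay above all others in every ShLuc library, the ranges of Cd63 and Psap overlapped at their edges, and Psap lay above Grn throughout. In vehicle libraries the first 3 were the same, at 3247 ± 214, 2488 ± 99.5 and 2265 ± 177, and the last 4 were Arsb, Sgsh, Galns and Gla, between 32.6 ± 7.56 and 24.6 ± 5.51, whose ranges overlapped one another. The transcript length is that of 1 annotated transcript per gene (GENCODE M21).

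Other genes of the pathway were counted from lists written by function. Of 8 regulators, 7 were tested after knockdown and 6 after OSMI-1. Ppargc1a, a coactivator that raises TFEB expression in mouse models, averaged 588 ± 51.3 in OSMI-1 and 391 ± 45.5 in vehicle libraries (log2 fold change 0.59 ± 0.09 (SE), limma adjusted p = 4.87e-05) and 667 ± 80.8 in ShOgt and 854 ± 113 in ShLuc libraries (log2 fold change -0.35 ± 0.11 (SE), limma adjusted p = 0.0163). Tfeb was scarce, at 20 ± 7.45 in ShOgt and 18.3 ± 7.51 in ShLuc libraries, and under the filter after OSMI-1 (10.6 ± 3.44 against 8.21 ± 4.6 in vehicle libraries). Tfe3, the more abundant relative, was not called (log2 fold change 0.23 ± 0.10 after OSMI-1 and 0.23 ± 0.10 after knockdown, limma adjusted p = 0.112 and 0.0698). Zkscan3, a repressor of lysosomal genes in human cells, had log2 fold changes of 0.26 ± 0.10 and 0.21 ± 0.09 (limma adjusted p = 0.0596 and 0.1). Mitf, Myc and Max were not called in either comparison, with limma adjusted p of 0.744, 0.27 and 0.307 after OSMI-1 and 0.766, 0.544 and 0.38 after knockdown, and Tfec was at or near 0. Transcript levels do not show where these factors were in the cell.

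Of 17 genes that tag or sort lysosomal proteins, 7 were called higher and 1 lower after OSMI-1 (median log2 fold change 0.25), and 2 higher and 1 lower after knockdown (median -0.06). Of all genes tested, 11.6% were called higher and 13.2% lower after OSMI-1, and 15.4% higher and 16.4% lower after knockdown, so that the knockdown counts of this list were no larger than the share over all genes. Vps41, a subunit of the complex that docks vesicles on lysosomes, was higher in both, at 0.42 ± 0.08 after OSMI-1 and 0.29 ± 0.08 after knockdown (log2 fold change ± SE; limma adjusted p = 0.000334 and 0.00788). Vps33a of the same complex and Sort1, a sorting receptor, were higher after OSMI-1 (0.45 ± 0.09 and 0.41 ± 0.10; limma adjusted p = 0.000824 and 0.00374). M6pr, the smaller mannose 6-phosphate receptor, rose after knockdown (log2 fold change 0.41 ± 0.07 (SE), limma adjusted p = 0.000187); after OSMI-1 it was close to the threshold (log2 fold change 0.19 ± 0.07 (SE), limma adjusted p = 0.0462), and that call was lost in 9 of 11 fits that left out 1 library. Ap1m1, an adaptor subunit, fell after knockdown (log2 fold change -0.25 ± 0.08 (SE), limma adjusted p = 0.0173) and after OSMI-1 (log2 fold change -0.24 ± 0.08 (SE), limma adjusted p = 0.0354), and Gga3, an adaptor for the receptors, rose after OSMI-1 (log2 fold change 0.59 ± 0.20 (SE), limma adjusted p = 0.0367). The OSMI-1 calls of Ap1m1 and Gga3 were lost in 7 such fits each.

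Of 40 other lysosomal genes, 38 were tested in each comparison. After OSMI-1 19 were called higher and 0 lower (median log2 fold change 0.29), against 11.6% and 13.2% of all genes tested. After knockdown 11 were called higher and 6 lower (median 0.08), against 15.4% and 16.4% of all genes tested, the lower count being close to that share. Ctns, the cystine exporter, was among the largest in both, at 188 ± 20.3 in OSMI-1 against 114 ± 12.6 in vehicle libraries (log2 fold change 0.72 ± 0.13 (SE), limma adjusted p = 0.00016) and 335 ± 47.7 in ShOgt against 194 ± 22.6 in ShLuc libraries (log2 fold change 0.79 ± 0.13 (SE), limma adjusted p = 0.000113). Tmem192, Abca2 and Tmem175, membrane proteins, followed after OSMI-1 at log2 fold changes of 0.69 ± 0.19, 0.64 ± 0.15 and 0.60 ± 0.08 (limma adjusted p = 0.00986, 0.0027 and 1.08e-05). After knockdown the largest were Idua, an enzyme of glycosaminoglycan breakdown (log2 fold change 1.12 ± 0.23 (SE), limma adjusted p = 0.00106), and Pla2g15, a lysosomal phospholipase (log2 fold change 0.84 ± 0.20 (SE), limma adjusted p = 0.00306), and Laptm4b, a lysosomal membrane protein, fell (log2 fold change -0.69 ± 0.07 (SE), limma adjusted p = 3.78e-07).

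Markers of other cells were examined because macrophages and microglia are rich in lysosomes. The summed counts of the 13 microglia and macrophage markers were 11.9 to 24.1 in OSMI-1 and 9.56 to 25.1 in vehicle libraries, and 22.6 to 43.7 in ShOgt and 7.46 to 29.9 in ShLuc libraries. Aif1, C1qc and Trem2 had 0 counts in all libraries of the inhibitor experiment, and Cx3cr1, C1qa and C1qb in all of the knockdown experiment. Neural stem cell markers summed to 18933 to 20397 in OSMI-1 and 23342 to 28111 in vehicle libraries (2 of 9 tested called higher, 3 lower), and to 35297 to 40782 in ShOgt and 39602 to 44449 in ShLuc libraries (1 of 10 higher, 3 lower). Astrocyte markers summed to 1773 to 2055 in OSMI-1 and 1369 to 1621 in vehicle libraries (2 of 2 tested higher, Aldh1l1 and S100b), and to 3092 to 4040 in ShOgt and 2887 to 3244 in ShLuc libraries (0 of 3 called). Neuronal markers summed to 72.8 to 122 in OSMI-1 and 136 to 179 in vehicle libraries (0 of 3 higher, 2 lower), and to 490.3 to 581 in ShOgt and 289 to 407 in ShLuc libraries (1 of 3 higher). Oligodendrocyte markers summed to 5.73 to 33.7 in OSMI-1 and 21.2 to 40.2 in vehicle libraries (1 of 2 tested lower), endothelial and mural markers to at most 16.2 in OSMI-1 and 15.3 in vehicle libraries (0 tested), and ependymal markers to 48.9 to 94.8 in OSMI-1 and 108 to 183 in vehicle libraries (1 of 1 lower). In the knockdown experiment these lists summed to at most 16.8 in ShOgt and 13.6 in ShLuc libraries for oligodendrocytes (0 tested), to at most 15.5 in ShOgt and 19.7 in ShLuc libraries for endothelial and mural cells (0 tested), and to 126 to 181 in ShOgt and 59.0 to 166 in ShLuc libraries for ependymal cells (1 of 2 tested higher). Beside these counts, 11.6% of all genes tested were called higher and 13.2% lower after OSMI-1, and 15.4% higher and 16.4% lower after knockdown. Few markers were tested per list, and whether their counts differ from those shares was not tested. After OSMI-1 the sums of the neural stem cell, neuronal and ependymal lists lay below those of vehicle libraries without overlap, and the astrocyte sums above. After knockdown only the neuronal sums did not overlap, being higher in ShOgt libraries. The part of these marker differences in the lysosomal results was not tested.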

How the data were processed

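RNA-seq of 22 libraries was used as deposited. The authors aligned reads with STAR, counted them with RSEM and compared groups with DESeq2, per the submitters' processing notes and the series' design text; versions are not given in the sources used here. The notes name a human build although the genes carry mouse symbols, and the label protocol (strand-specific poly(A) libraries) and the design text (Smart-Seq2) disagree. Per the file headers, the deposited values are normalized counts per library (a signal: counts divided by a size factor), mean normalized counts, log2 fold changes with standard errors, a test score (Wald statistic) and p-values. The authors' inhibitor table gives vehicle over OSMI-1. 100% of values were whole multiples of 1 step per library within 0.001, so reads could be recovered (ranges of depth open the results), and 0 columns belonged to other samples.

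Each table was fitted on its own with limma 3.58.1 (R 4.3.3) on log2(normalized count + 1), with an intensity trend, after filterByExpr (minimum count 10, minimum total 15), with Benjamini-Hochberg adjustment over all genes tested, two-sided, at 0.05. Fold changes are on this scale, where the added 1 can understate those of low counts. edgeR 4.0.16 and DESeq2 1.42.0 on the recovered reads, other pseudocounts, filters and scalings, a replicate block and leaving out libraries were alternatives. The fit was tested on simulated data with known changes in 200 genes. It recovered 44% of 1.5-fold and 89% of 2-fold changes in the knockdown design, and 58% and 81% in the inhibitor design. Of the genes called, 2.21% and 3.47% were false. A gene that was not called may therefore still differ.

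The members, classes and gene lists were chosen with earlier results of these data known. Named in full were, per class and comparison, the called member with the largest rise and the largest fall, and each member called in both comparisons; of the sorting and other lysosomal lists, up to 4 called genes with the largest change per comparison, and every regulator. Promoter motifs were counted in the RefSeq table, transcript models taken from GENCODE M21 (GRCm38).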

Additional observations from a re-analysis of the deposited data

Results flagged for a closer look

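In 148 groups of 5 or 6 libraries, 10 had a library far from the others by Dixon's test; chance alone gives about 1 in 20. ShOgt 1 had the highest Ctsd count (18891, against 17445 to 17516 in the other ShOgt libraries) and the highest summed count of the 35 genes (94351, against 87247 to 88941). ShOgt 6 had the lowest Cln3 count (249.7, against 305 to 321). Among controls, ShLuc 1 was high for Ctsl (1336, against 1062 to 1119) and ShLuc 3 for Arsa (538, against 321 to 393). Vehicle 4 was high for Ctsl (972, against 813 to 869), vehicle 3 for Gaa (1361, against 1081 to 1171) and vehicle 2 for Npc2 (1257, against 1143 to 1186), while vehicle 2 was low for Ppt1 (1141, against 1254 to 1295). OSMI-1 replicate 4 had 12.8 M reads, against 4.59 to 5.91 M in the other OSMI-1 libraries.

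Ctsb moved in opposite directions, with no overlap between groups in either experiment: its log2 fold change was -0.63 after Ogt knockdown and 0.51 after OSMI-1. This difference between the experiments was not tested.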

How the results depend on the processing

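The count of lysosomal genes called stayed within 1.5 times under every alternative tried: between 17 and 21 after knockdown (20 as reported) and between 22 and 23 after OSMI-1 (23 as reported). Leaving out each library in turn gave 15 to 21 and 21 to 23, and over all genes 3209 to 3893 and 2427 to 2671. Of the 20 called after knockdown, 14 kept their call under each of 20 settings, and Dpp7, Hexa, Man2b1, Arsb, Ppt1 and Psap lost it under some; of the 23 after OSMI-1, 21 kept it, and Neu1 and Cln3 lost it under some. No fold change of a called gene turned round. Deviations of libraries with the same number had correlations of -0.0992 to 0.161, over 0.1 for ShOgt 3 and ShLuc 3 and under it for the other 9 pairs, so the numbers were not taken as pairs; with a replicate block, 18 and 22 lysosomal genes were called, and 3954 and 2376 of all genes; Hexa, Arsb and Psap after knockdown (limma adjusted p = 0.0711, 0.0576 and 0.0855) and Cln3 after OSMI-1 (0.0642) were not called there, and Asah1 after knockdown was (0.0154). The authors' deposited table calls 21 of the 35 after knockdown (17 higher, 4 lower, Asah1 added) and 23 after OSMI-1. The log2 difference in summed counts after knockdown was 0.12; as a share of reads without Rn45s, a scale chosen after seeing the data, it was 0.18, and the cause was not tested. Without the 2 genes of highest count it was 0.09, and after OSMI-1 0.57. The E-box share of 45.2% becomes 19.35% with the 8-base and 3.226% with the 10-base form, by construction.

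Standard errors were widest for Galns in both comparisons (0.24 on the log2 scale); the part of depth in this was not tested. The whole list was picked with these results known, the groups hold 5 or 6 libraries of unstated independence, and knockdown and inhibitor differ in agent, duration and table.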
